A study of Homo sapiens with 10 samples.

Results

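Messenger RNA of 40 genes of glycolysis and the hypoxia response was followed in cultured human endometriotic cells exposed to the cytokine IL1β with or without inhibitors of the kinase JNK. The genes were listed by symbol, with earlier results of these data known, and were 40 of the 62750 gene rows counted. They comprised 3 subunits of hypoxia-inducible factor (HIF), 2 HIF prolyl hydroxylases, 4 glucose or lactate transporters, 15 glycolytic enzymes, 3 regulators of glycolytic flux, 2 lactate dehydrogenases and 11 other HIF target genes. All 40 passed the filter on low counts and were among the 15740 genes tested.

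The cells were 12Z, an established immortalized line of epithelial cells from peritoneal endometriosis, so all groups come from the same line. All groups spent a night in charcoal-stripped serum, had 30 min of pre-treatment, and were collected 6 h later as poly(A) RNA libraries, with 2 samples in each of 5 groups. In 3 groups the pre-treatment was an inhibitor followed by 10 ng/ml IL1β, namely 1 µM CDD-3013, 1 µM CDD-2728 or 10 µM CDD-2728. The IL1β group received the DMSO vehicle and then 10 ng/ml IL1β, and the vehicle group received DMSO with no IL1β. No group received an inhibitor without IL1β. The compounds are known here only by their code names, as JNK inhibitors. The labels do not say whether a group's 2 samples are separate cultures, so p-values measure the spread between these samples, which may be technical.

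Glycolysis splits glucose into pyruvate in the cytosol, and pyruvate is either oxidised in mitochondria or reduced to lactate and exported. HIF pairs an oxygen-regulated alpha subunit, encoded by HIF1A or EPAS1, with the constitutive partner encoded by ARNT, and binds a short core motif near genes for glucose uptake, glycolytic enzymes, lactate export and the vascular response. When oxygen is present, prolyl hydroxylases mark the alpha subunits for destruction, so that much of HIF control acts on protein and is not visible in RNA. Inflammatory signalling can also raise HIF1A transcription, and HIF is studied in endometriotic lesions.

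Libraries held 16312600 to 19479416 counts, and replicate libraries correlated at 0.9901 to 0.9925 on the log2 scale. The most abundant epithelial marker was the keratin KRT8 (mean 6772 CPM, counts scaled to library size with TMM factors). The most abundant fibroblast and mesothelial markers were COL1A1 (2800 CPM) and LRRN4 (464.5 CPM). The other epithelial markers ranged from 2049 CPM (KRT18) to 0.073 CPM (EPCAM). Other fibroblast markers ranged from 349.3 CPM (DCN) to 22.5 CPM (COL1A2), and mesothelial ones from 68.91 CPM (MSLN) to 23.75 CPM (UPK3B). EPCAM, 1 of 6 epithelial markers, and 4 of 5 immune markers averaged under 1 CPM. Summed epithelial markers stood at 12260 to 13470 CPM with CDD-3013, above the 8115 to 10650 CPM of the 8 other libraries; KRT8, KRT18 and KRT7 were above those libraries, and KRT19 and CDH1 were not. Summed fibroblast markers stood at 2619 to 2703 CPM with 10 µM CDD-2728, below the 2992 to 3734 CPM of the 8 other libraries. Of these, COL1A1 was below them, while COL1A2, PDGFRB, HAND2 and DCN were not. Summed mesothelial markers were also lowest with 10 µM CDD-2728, at 464 to 505 CPM, against 513.9 to 750.9 CPM in the 8 other libraries, LRRN4 being below them and MSLN, UPK3B and WT1 not. The part of these markers in the results was not tested. In bulk RNA, a change in the RNA of each cell and a change in the share of cells that express a gene cannot be told apart.

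Set per exon length as TPM, the 40 genes spanned a wide range. The dehydrogenase GAPDH was the most abundant in the mean over all libraries at 4296 TPM, followed by the enolase ENO1 at 2880 TPM and the pyruvate kinase PKM at 1889 TPM. HIF1A and EPAS1 had ranks 9 and 11 at 300.3 and 241 TPM. The lowest were the aldolase ALDOC at 3.40 TPM and the carbonic anhydrase CA9 at 1.81 TPM, and CA9 was the only one of the 40 with a mean under 1 CPM. TPM values rest on the union of annotated exons, and ALDOA shares 42.3% of its exon bases with an overlapping gene on its own strand, so its level of 30.4 TPM is uncertain.

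In IL1β cells against vehicle cells, genes of HIF itself, its hydroxylases, glucose uptake and lactate export were higher, while 10 of 15 glycolytic enzymes did not pass the test. Of the 40 genes, 21 were higher and 2 lower at an adjusted p under 0.05 (edgeR quasi-likelihood test with Benjamini-Hochberg adjustment over 15740 genes). Over all tested genes, 17.6% were higher and 15.0% lower in that comparison. The median log2 fold change was 0.26 over the 40 genes and -0.01 over all tested genes. With library totals in place of TMM factors the median of all genes shifted to -0.18, and the 40 genes gave 16 higher and 3 lower, against 10.3% and 30.1% of all tested genes. By role, 2 of 3 HIF subunits, 2 of 2 hydroxylases, 4 of 4 transporters and 8 of 11 other HIF targets were higher, as were 3 of 15 enzymes, 1 of 3 flux regulators and 1 of 2 lactate dehydrogenases.

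**Figure D1:**
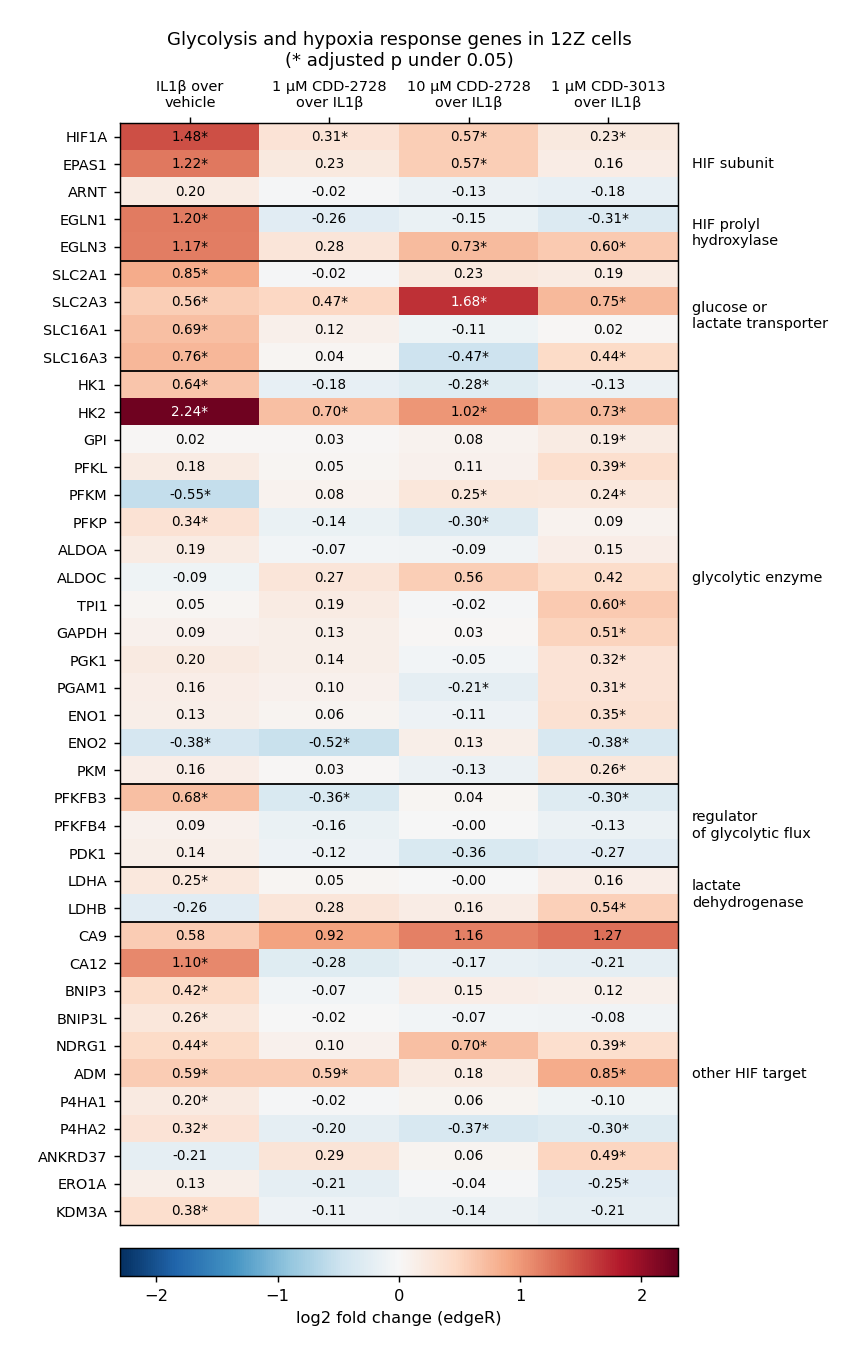
Log2 fold changes of the 40 genes (rows, ordered by role) in 4 comparisons (columns), from the edgeR fit of 10 libraries; red is higher and blue lower in the group named first, and an asterisk marks an adjusted p under 0.05. HK2, HIF1A and EPAS1 are red with IL1β over vehicle, and SLC2A3 is the reddest cell with 10 µM CDD-2728 over IL1β.

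Transcripts of both HIF alpha subunits rose with IL1β. HIF1A (chr14:61695513-61748259, plus strand, GRCh38) had 374 and 393 CPM in IL1β cells, against 142 and 133 CPM in vehicle cells. Its log2 fold change was 1.48 ± 0.083 (SE; edgeR adjusted p = 2.69e-14). EPAS1 (chr2:46293667-46386703, plus strand), which encodes the second alpha subunit, had 426 and 449.6 CPM in IL1β cells, against 195 and 182 CPM in vehicle cells, a log2 fold change of 1.22 ± 0.083 (edgeR adjusted p = 1.28e-12). For both genes every IL1β library lay above every vehicle library. The partner ARNT (chr1:150809705-150876768, minus strand) had 63.4 and 59.6 CPM in IL1β cells, against 54.7 and 52.6 CPM in vehicle cells. Those groups did not overlap either, but the log2 fold change of 0.20 ± 0.093 missed the threshold (edgeR adjusted p = 0.0507) and passed when exon length and GC content were corrected for (0.18, edgeR adjusted p = 0.0423).

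The hydroxylases that mark HIF alpha subunits for destruction rose as well. EGLN1 (chr1:231363751-231425044, minus strand), the main oxygen sensor of the family, had 102 and 95.6 CPM in IL1β cells, against 45.5 and 40.1 CPM in vehicle cells (log2 fold change 1.20 ± 0.090, edgeR adjusted p = 2.67e-11). EGLN3 (chr14:33924231-34462774, minus strand), itself a known HIF target, was far less abundant, with 9.46 and 10.1 CPM in IL1β cells, against 3.88 and 4.8 CPM in vehicle cells (log2 fold change 1.17 ± 0.17, edgeR adjusted p = 5.34e-06). The fold changes were 2.3 for EGLN1 and 2.25 for EGLN3, and neither pair of groups overlapped.

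All 4 transporters were higher with IL1β. SLC2A1 (chr1:42925375-42959176, minus strand), the widespread glucose carrier GLUT1, had 87.7 and 88.4 CPM in IL1β cells, against 47.8 and 50 CPM in vehicle cells (log2 fold change 0.85 ± 0.095, edgeR adjusted p = 3.01e-07). SLC2A3 (chr12:7919230-7936275, minus strand), the high-affinity carrier GLUT3, had 54.3 and 56.5 CPM in IL1β cells, against 36.2 and 39 CPM in vehicle cells (0.56 ± 0.093, edgeR adjusted p = 5.05e-06). The 2 carriers of glucose rose by unlike amounts, and the SLC2A3 share of their summed TPM was 32.2% and 32.9% in IL1β cells, against 36.8% and 37.4% in vehicle cells. SLC16A1 (chr1:112911847-112957013, minus strand), the lactate carrier MCT1, had 284 and 265 CPM in IL1β cells, against 172 and 168 CPM in vehicle cells (0.69 ± 0.082, edgeR adjusted p = 8.81e-09). SLC16A3 (chr17:82228397-82261129, plus strand), the lactate exporter MCT4, had 798 and 782 CPM in IL1β cells, against 463 and 471 CPM in vehicle cells (0.76 ± 0.082, edgeR adjusted p = 6.02e-09).

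Of the 3 enzymes that rose, 2 catalyse the entry step, the phosphorylation of glucose. HK2 (chr2:74833981-74893359, plus strand), the inducible hexokinase, had 133 and 136 CPM in IL1β cells, against 30.7 and 26 CPM in vehicle cells. This was the largest change of the 40 genes in this comparison, 4.73-fold, with a log2 fold change of 2.24 ± 0.090 (edgeR adjusted p = 2.35e-16). HK1 (chr10:69269984-69401884, plus strand), the housekeeping hexokinase, had 229 and 248 CPM in IL1β cells, against 153 and 152 CPM in vehicle cells (0.64 ± 0.081, edgeR adjusted p = 5.12e-08). HK2 made up 37.6% and 36.3% of the summed TPM of both hexokinases in IL1β cells, against 17.2% and 15.1% in vehicle cells. The third enzyme to rise was PFKP, the platelet-type phosphofructokinase (0.34 ± 0.082, edgeR adjusted p = 0.000337).

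The 2 enzymes that fell were minor isoforms. PFKM, the muscle-type phosphofructokinase, had 61.3 and 58.8 CPM in IL1β cells, against 88.8 and 86.8 CPM in vehicle cells (-0.55 ± 0.090, edgeR adjusted p = 3.15e-06), and its share of the summed TPM of the 3 phosphofructokinases was 7.34% and 7.01%, against 12.5% and 11.8%. ENO2 (chr12:6913745-6923698, plus strand), the neuronal-type enolase, had 31.6 and 32.3 CPM in IL1β cells, against 40.5 and 42.6 CPM in vehicle cells (-0.38 ± 0.10, edgeR adjusted p = 0.00551). The ENO2 call was lost without vehicle replicate 2 (-0.33, edgeR adjusted p = 0.0565) and without IL1β replicate 1 (-0.35, edgeR adjusted p = 0.0642). The other 10 enzymes were not called, with log2 fold changes of -0.092 (ALDOC) to 0.20 (PGK1). GAPDH (chr12:6533927-6538374, plus strand), often used as a reference transcript, had 2955 and 3098 CPM in IL1β cells, against 2624 and 3052 CPM in vehicle cells (0.093 ± 0.084, edgeR adjusted p = 0.436). TPI1 (chr12:6867119-6870948, plus strand), the triose isomerase, had 755 and 782 CPM in IL1β cells, against 702 and 782 CPM in vehicle cells (0.052 ± 0.084, edgeR adjusted p = 0.686). Summed over the 15 enzymes, the level was 11710 and 11890 TPM in IL1β cells, against 11680 and 12450 TPM in vehicle cells, and these ranges overlapped.

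Of the flux regulators, PFKFB3 (chr10:6144934-6254644, plus strand), which makes the activator of phosphofructokinase, had 38.4 and 39.9 CPM in IL1β cells, against 25.3 and 23.4 CPM in vehicle cells (0.68 ± 0.11, edgeR adjusted p = 3.12e-06). PFKFB4 (0.092) and PDK1, the kinase that holds back pyruvate dehydrogenase (0.14), were not called. LDHA, which turns pyruvate into lactate, rose (0.25 ± 0.083, edgeR adjusted p = 0.00777), while LDHB, with far fewer counts, had a log2 fold change of -0.26 that was not called. As with ALDOA, the level of LDHB is uncertain, since an overlapping gene on its own strand covers 33.4% of its exon bases. The LDHA call was lost with library totals (0.078, edgeR adjusted p = 0.377) and on leaving out some libraries (LDHA 0.22 without vehicle replicate 1 and 0.25 without IL1β replicate 2).

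Among the 11 other HIF targets, CA12 (chr15:63321378-63382161, minus strand), a carbonic anhydrase of the cell surface, had 27.8 and 29.6 CPM in IL1β cells, against 12.5 and 14.4 CPM in vehicle cells (1.10 ± 0.15, edgeR adjusted p = 5.39e-06). ADM (chr11:10304680-10307397, plus strand), the vasodilator adrenomedullin, had 69.2 and 79.6 CPM in IL1β cells, against 47.4 and 51.5 CPM in vehicle cells (0.59 ± 0.089, edgeR adjusted p = 1.34e-05). NDRG1, a stress-responsive gene, had 128 and 128 CPM in IL1β cells, against 96 and 92.8 CPM in vehicle cells (0.44 ± 0.084, edgeR adjusted p = 0.000113). In all 3 genes both IL1β libraries lay above both vehicle libraries. The mitophagy receptors BNIP3 (0.42) and BNIP3L (0.26), the collagen prolyl hydroxylase subunits P4HA1 (0.20) and P4HA2 (0.32) and the histone demethylase KDM3A (0.38) also rose. With library totals BNIP3 alone of these 5 kept its call, the others being at 0.090 (BNIP3L, edgeR adjusted p = 0.314), 0.031 (P4HA1, edgeR adjusted p = 0.781), 0.15 (P4HA2, edgeR adjusted p = 0.117) and 0.21 (KDM3A, edgeR adjusted p = 0.0571). The P4HA1 call was also lost with DESeq2 (adjusted p = 0.0617), without the filter, with the replicate block (edgeR adjusted p = 0.0531) and on leaving out a library (P4HA1 0.17 without vehicle replicate 1, 0.26 without IL1β replicate 1 and 0.16 without IL1β replicate 2). ANKRD37, ERO1A and CA9 were not called. CA9 (chr9:35673856-35681159, plus strand), among the HIF targets most used as a hypoxia marker, had 2 and 14 counts in the IL1β libraries, against 3 and 10 in the vehicle libraries, a ratio of 1.5 with an exact 95% counting interval of 0.677 to 3.39.

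**Figure D2:**
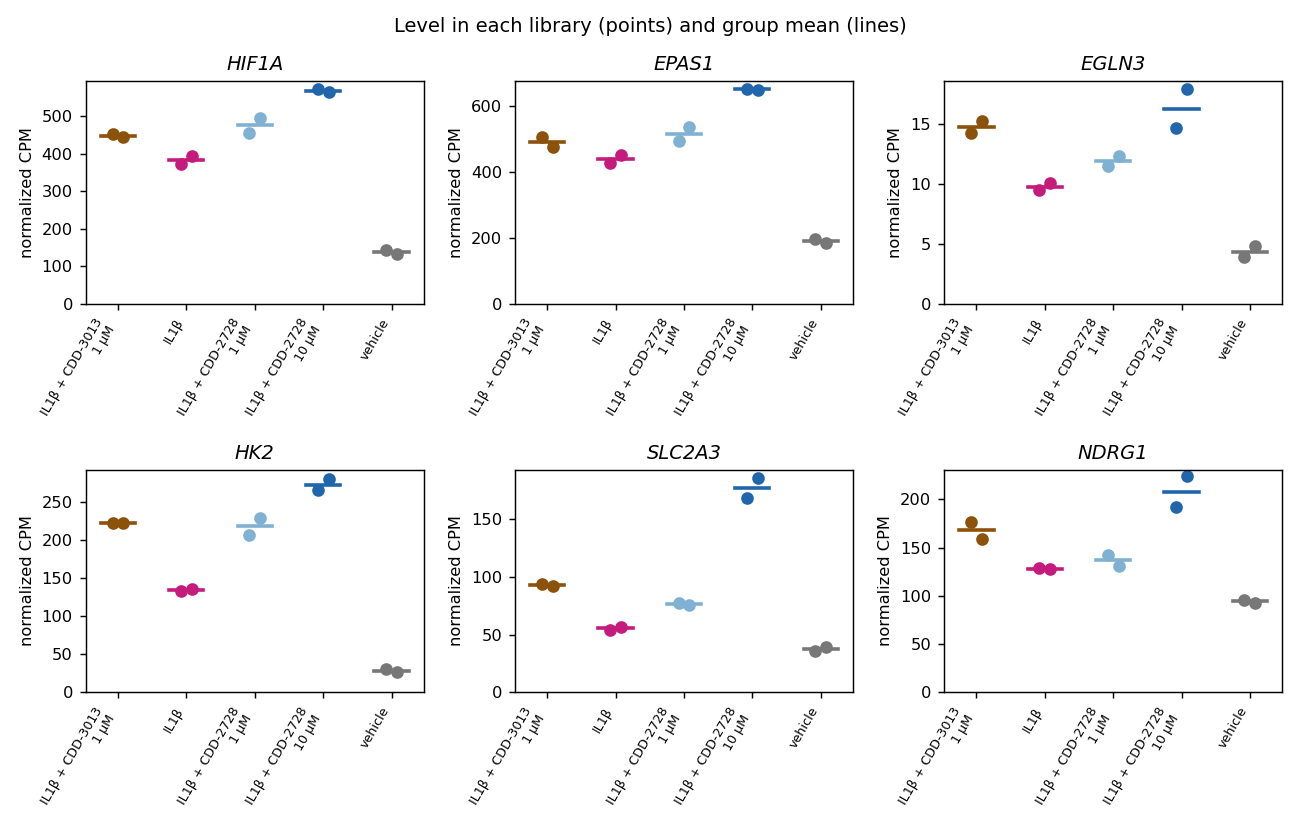
Normalized CPM of 6 genes in each library (points) with group means (lines); the vertical axes start at 0. HIF1A, EPAS1 and HK2 are lowest in both vehicle libraries and highest in both libraries with 10 µM CDD-2728.

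Promoter sequence was read from RefSeq (GRCh38.p14) to set the HIF core motif beside these values. An entry of 250 bases before to 50 after the gene start was matched for 36 of the 40 genes, the exceptions being SLC2A3, SLC16A1, BNIP3L and NDRG1. The core motif ACGTG or GCGTG, on either strand, with the palindrome CACGTG counted on each strand, was present in 26 of the 36 windows (72.2%), against 62.6% of 11220 windows of tested genes and 48.4% of all 35116 windows. The AP-1 motif TGANTCA, the site of the factors that JNK phosphorylates, was present in 2 of 36 (5.56%), against 4.79% of tested genes and 7.71% of all windows. A match is a description of letters and not a binding site. The 250 bases before the RefSeq start are shown, 5′ to 3′ on the gene's strand, for 4 genes with large changes, chosen after their values were seen; capitals mark the HIF core.
HIF1A (chr14:61695263-61695512, plus strand): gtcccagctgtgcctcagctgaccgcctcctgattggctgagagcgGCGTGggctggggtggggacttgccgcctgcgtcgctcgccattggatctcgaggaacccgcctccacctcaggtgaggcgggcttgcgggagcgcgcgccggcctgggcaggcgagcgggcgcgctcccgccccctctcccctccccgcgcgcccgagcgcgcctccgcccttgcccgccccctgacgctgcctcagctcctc
EPAS1 (chr2:46297157-46297406, plus strand): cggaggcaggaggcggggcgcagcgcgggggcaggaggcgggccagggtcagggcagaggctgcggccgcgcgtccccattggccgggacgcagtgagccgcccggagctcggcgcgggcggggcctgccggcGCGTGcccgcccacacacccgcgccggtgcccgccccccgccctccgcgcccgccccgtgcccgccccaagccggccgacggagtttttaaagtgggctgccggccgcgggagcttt
HK2 (chr2:74833877-74834126, plus strand): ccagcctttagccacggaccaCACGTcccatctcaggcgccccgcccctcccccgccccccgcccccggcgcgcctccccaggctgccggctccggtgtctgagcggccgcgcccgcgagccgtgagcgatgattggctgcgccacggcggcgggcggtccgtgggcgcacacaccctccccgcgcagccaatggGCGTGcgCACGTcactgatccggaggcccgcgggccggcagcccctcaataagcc
EGLN3 (chr14:33951075-33951324, minus strand): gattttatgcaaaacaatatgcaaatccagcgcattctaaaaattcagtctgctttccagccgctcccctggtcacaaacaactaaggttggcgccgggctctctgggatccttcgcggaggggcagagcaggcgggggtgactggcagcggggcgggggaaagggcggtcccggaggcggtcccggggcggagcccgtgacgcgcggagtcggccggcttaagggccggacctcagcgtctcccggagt
HK2 held 3 cores in these bases, HIF1A and EPAS1 1 each, and EGLN3 0. The gene spans given with the values are the outermost GENCODE bounds. The windows of EPAS1 and EGLN3 lie inside those spans and that of HK2 runs past its bound, so the motif counts hold for the RefSeq starts, and other starts were not searched.

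Genes of the same pathways outside the 40 were counted for comparison. In IL1β cells against vehicle cells, 17.6% of all tested genes were higher and 15.0% lower. Of 31 tested further HIF targets (of 32 listed), 14 were higher and 4 lower, with a median log2 fold change of 0.24. Those changed at least 1.5-fold included genes of the matrix and of vessel growth. The crosslinking enzyme LOX had 761 and 734 CPM in IL1β cells, against 188 and 178 CPM in vehicle cells, and the growth factor VEGFA 59.4 and 63.6 CPM, against 18.8 and 20.4 CPM. The mTORC1 inhibitor DDIT4 (5-fold), the circadian repressor BHLHE40 (3.12-fold), AK4 (2.16-fold), UGP2 (1.81-fold) and JMJD6 (1.51-fold) were also higher, and CITED2, a competitor of HIF for its coactivator, was at 0.649 times the vehicle level (edgeR adjusted p = 4.65e-05). With library totals the counts of higher and lower further targets were 11 and 7, against 10.3% and 30.1% of all tested genes. Of 10 tested HIF regulators, 2 were higher and 0 lower (1 and 1 with library totals). Of 10 tested further isoenzymes and transporters (of 19 listed), 2 were higher and 2 lower. The lysosomal glucose carrier SLC2A6 had 420.2 and 407 CPM in IL1β cells, against 89.9 and 85.6 CPM in vehicle cells, and PFKFB2 was lower (0.643-fold). The call of PFKFB2 was lost on leaving out libraries (PFKFB2 -0.60 without vehicle replicate 1 and -0.52 without IL1β replicate 1).

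Of 18 tested genes of pyruvate dehydrogenase and the citric acid cycle, 4 were higher and 3 lower in IL1β cells, with a median of -0.057. That is 22.2% and 16.7%, near the 17.6% and 15.0% of all tested genes. The 3 lower ones were PDK2 (0.565-fold) and PDK3 (0.472-fold), kinases that hold back pyruvate dehydrogenase, and PDP2 (0.664-fold), a phosphatase that releases it. PDP1, the other such phosphatase, was 2-fold higher. PDK3 was not called without IL1β replicate 1 (-0.59, edgeR adjusted p = 0.287) or vehicle replicate 2 (-0.88, edgeR adjusted p = 0.116). Of 7 genes of the pentose phosphate pathway, 0 were higher and 1, PGD, was lower. With library totals these lists gave 1 and 8, and 0 and 5, higher and lower, against 10.3% and 30.1% of all tested genes. The median of all tested genes was then -0.18.

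With CDD-2728 added to IL1β, HIF1A, HK2 and SLC2A3 were higher than with IL1β alone at both doses, and EPAS1, EGLN3 and NDRG1 at 10 µM. At 1 µM against IL1β, 4 of the 40 genes were higher (HK2, SLC2A3, ADM, HIF1A) and 2 lower (PFKFB3, ENO2), while 2.03% of all tested genes were higher and 2.57% lower. Without IL1β replicate 1, fewer of the 40 genes and fewer of all tested genes were called. At 10 µM against IL1β, 7 were higher (HIF1A, EPAS1, EGLN3, HK2, PFKM, SLC2A3, NDRG1) and 5 lower (HK1, PFKP, PGAM1, SLC16A3, P4HA2), while 15.6% of all tested genes were higher and 15.9% lower. With library totals these were 9 and 4, against 19.6% and 12.1%. Between the doses, 10 against 1 µM, 9 were higher (HK2, ENO2, PFKFB3, SLC2A1, SLC2A3, NDRG1, EGLN3, HIF1A, EPAS1) and 4 lower (PGAM1, SLC16A1, SLC16A3, ADM), while 13.3% of all tested genes were higher and 13.8% lower. With library totals the doses gave 12 higher and 3 lower, against 18.0% and 8.82%, and after the length and GC correction 8 and 12, against 10.9% and 22.4%. The median log2 fold changes of the 40 genes were 0.045, 0.016 and 0.019 in these comparisons, and those of all tested genes -0.002, 0.006 and 0.011. These comparisons share libraries with each other and with that of IL1β against vehicle, so a library that is high or low enters several of them.

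HIF1A had 374 and 393 CPM with IL1β alone, 456 and 496 CPM with 1 µM and 572 and 565 CPM with 10 µM CDD-2728, and no 2 of these groups overlapped. Against IL1β alone its log2 fold change was 0.31 ± 0.082 at 1 µM (edgeR adjusted p = 0.0063) and 0.57 ± 0.082 at 10 µM (edgeR adjusted p = 7.76e-07), and 10 against 1 µM gave 0.26 ± 0.081 (edgeR adjusted p = 0.00588). The call at 1 µM was lost without IL1β replicate 1 (0.28, edgeR adjusted p = 0.17), and that between doses without replicate 1 of 1 µM CDD-2728 (0.20, edgeR adjusted p = 0.0717). EPAS1 had 426 and 449.6 CPM with IL1β alone, 493 and 536 CPM with 1 µM and 652 and 648 CPM with 10 µM CDD-2728. It was called at 10 µM against IL1β (0.57 ± 0.082, edgeR adjusted p = 9.75e-07) and at 10 against 1 µM (0.34 ± 0.082, edgeR adjusted p = 0.000739), and at 1 µM it missed the threshold (0.23 ± 0.082, edgeR adjusted p = 0.0515), which it passed after the length and GC correction (0.28, edgeR adjusted p = 0.00379). ARNT was not called at either dose (-0.023 at 1 µM, -0.13 at 10 µM).

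EGLN3 had 9.46 and 10.1 CPM with IL1β alone, 11.4 and 12.3 CPM with 1 µM and 14.6 and 17.9 CPM with 10 µM CDD-2728. It was higher at 10 µM than with IL1β alone (0.73 ± 0.15, edgeR adjusted p = 0.000345) and higher than at 1 µM (0.45 ± 0.14, edgeR adjusted p = 0.0178), the last call being lost without replicate 1 of 1 µM (0.40, edgeR adjusted p = 0.107) or replicate 2 of 10 µM CDD-2728 (0.30, edgeR adjusted p = 0.236). EGLN1 had 102 and 95.6 CPM with IL1β alone, 78.2 and 86.2 CPM with 1 µM and 91.3 and 86.8 CPM with 10 µM CDD-2728 and was called at neither dose against IL1β (-0.26 and -0.15). As a share of the summed TPM of both hydroxylases, EGLN3 stood at 8.41% and 9.4% with IL1β alone, 12.6% and 12.3% with 1 µM and 13.7% and 16.9% with 10 µM.

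The glucose carrier SLC2A3 had the largest log2 fold change of the 40 genes at 10 against 1 µM. It had 54.3 and 56.5 CPM with IL1β alone, 77.5 and 75.7 CPM with 1 µM and 168 and 186 CPM with 10 µM CDD-2728, with no overlap between groups. Its log2 fold change against IL1β was 0.47 ± 0.090 at 1 µM (edgeR adjusted p = 0.000385) and 1.68 ± 0.087 at 10 µM (edgeR adjusted p = 1.17e-13), and 10 against 1 µM gave 1.21 ± 0.085 (edgeR adjusted p = 7.05e-11). SLC2A1 had 87.7 and 88.4 CPM with IL1β alone, 86.2 and 86.9 CPM with 1 µM and 89.8 and 117 CPM with 10 µM CDD-2728; its call at 10 against 1 µM (0.25 ± 0.092, edgeR adjusted p = 0.0445) was lost without replicate 2 of 10 µM CDD-2728 (0.049, edgeR adjusted p = 0.759), without either replicate of 1 µM CDD-2728 (log2 fold change 0.25 each time) and in 6 other fits. The SLC2A3 share of the summed TPM of both carriers was 32.2% and 32.9% with IL1β alone, 40.8% and 40.1% with 1 µM and 59% and 54.9% with 10 µM.

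The lactate exporter SLC16A3 was lower at the higher dose. It had 798 and 782 CPM with IL1β alone, 843 and 785 CPM with 1 µM and 539 and 599 CPM with 10 µM CDD-2728, and was lower at 10 µM than with IL1β alone (-0.47 ± 0.082, edgeR adjusted p = 1.36e-05) and than at 1 µM (-0.52 ± 0.082, edgeR adjusted p = 8.49e-06). SLC16A1 had 284 and 265 CPM with IL1β alone, 304 and 292 CPM with 1 µM and 254 and 255 CPM with 10 µM CDD-2728, with a call only between the doses (-0.22 ± 0.081, edgeR adjusted p = 0.0114); that call was lost with library totals (-0.15, edgeR adjusted p = 0.0854) and on leaving out libraries (SLC16A1 -0.19 without 1 µM CDD-2728 replicate 1, -0.22 without 10 µM CDD-2728 replicate 1 and -0.23 without 10 µM CDD-2728 replicate 2).

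HK2 had 133 and 136 CPM with IL1β alone, 206 and 229 CPM with 1 µM and 266 and 279 CPM with 10 µM CDD-2728. Its log2 fold change against IL1β was 0.70 ± 0.082 at 1 µM (edgeR adjusted p = 1.88e-06) and 1.02 ± 0.081 at 10 µM (edgeR adjusted p = 3.82e-10), and 10 against 1 µM gave 0.32 ± 0.080 (edgeR adjusted p = 0.00174). HK1 had 229 and 248 CPM with IL1β alone, 202 and 218 CPM with 1 µM and 190.1 and 201 CPM with 10 µM CDD-2728 and was lower at 10 µM than with IL1β alone (-0.28 ± 0.081, edgeR adjusted p = 0.00216), a call lost without IL1β replicate 2 (-0.22, edgeR adjusted p = 0.07). HK2 made up 37.6% and 36.3% of their summed TPM with IL1β alone, 51.4% and 52.1% with 1 µM and 59.2% and 59% with 10 µM. PFKM, lower with IL1β than in vehicle, was higher at 10 µM than with IL1β alone (0.25 ± 0.091, edgeR adjusted p = 0.0126). PFKP, higher with IL1β than in vehicle, was lower at 10 µM (-0.30 ± 0.082, edgeR adjusted p = 0.00132). PGAM1, also lower at 10 µM, passed narrowly (-0.21 ± 0.082, edgeR adjusted p = 0.0496). It was not called with relative log expression scaling, library totals, the stricter filter, DESeq2 or the replicate block (-0.21, -0.15, -0.19, -0.21 and -0.21). Left-out libraries ended some of these calls (PFKM 0.28 without IL1β replicate 1, 0.22 without IL1β replicate 2 and 0.23 without 10 µM CDD-2728 replicate 1; PGAM1 -0.23 without IL1β replicate 1, -0.18 without IL1β replicate 2, -0.14 without 10 µM CDD-2728 replicate 1 and -0.27 without 10 µM CDD-2728 replicate 2). GAPDH had 2955 and 3098 CPM with IL1β alone, 3588 and 3056 CPM with 1 µM and 3000 and 3194 CPM with 10 µM CDD-2728, and TPI1 755 and 782 CPM with IL1β alone, 964 and 793 CPM with 1 µM and 730.4 and 785 CPM with 10 µM CDD-2728; neither was called at either dose.

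**Figure D3:**
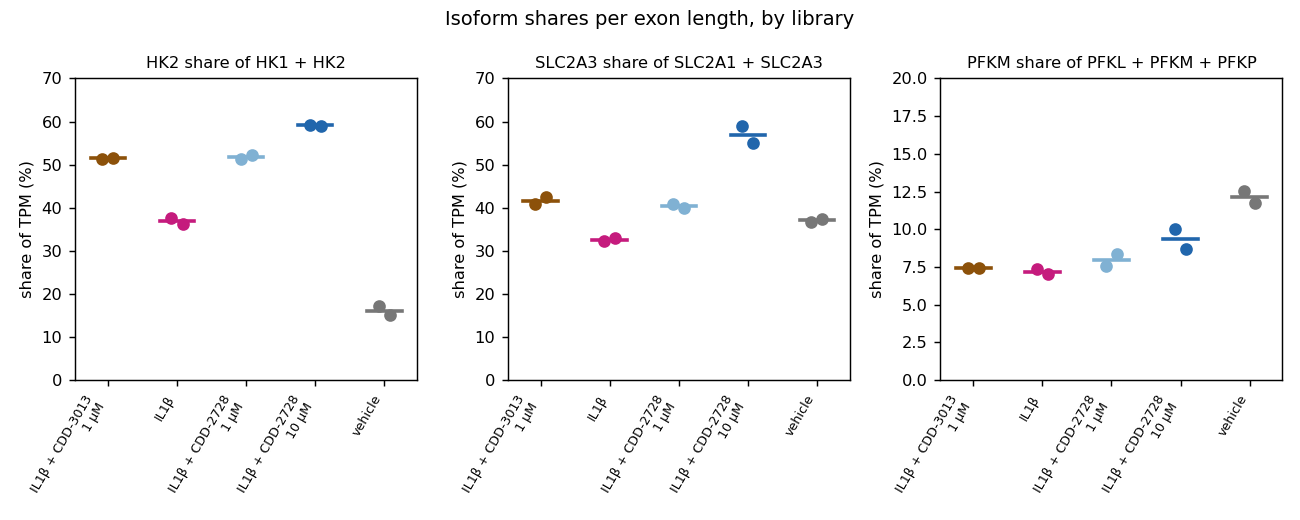
Shares of summed TPM (per exon length, %) held by HK2 of both hexokinases, SLC2A3 of both glucose carriers and PFKM of the 3 phosphofructokinases, in each library (points) with group means (lines). HK2 held 59.2% and 59.0% with 10 µM CDD-2728, 37.6% and 36.3% with IL1β alone and 17.2% and 15.1% in vehicle.

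A further 3 genes did not follow the dose in 1 direction. ADM had 69.2 and 79.6 CPM with IL1β alone, 112 and 112 CPM with 1 µM and 77.9 and 90.8 CPM with 10 µM CDD-2728. It was higher at 1 µM than with IL1β alone (0.59 ± 0.087, edgeR adjusted p = 0.000117), lower at 10 than at 1 µM (-0.41 ± 0.086, edgeR adjusted p = 0.001), and at 10 µM not called against IL1β (0.18 ± 0.087, edgeR adjusted p = 0.115). PFKFB3 had 38.4 and 39.9 CPM with IL1β alone, 31.3 and 29.8 CPM with 1 µM and 38.6 and 42 CPM with 10 µM CDD-2728, lower at 1 µM than with IL1β alone (-0.36 ± 0.11, edgeR adjusted p = 0.0253) and higher at 10 than at 1 µM (0.40 ± 0.11, edgeR adjusted p = 0.00236). ENO2 had 31.6 and 32.3 CPM with IL1β alone, 23.8 and 20.6 CPM with 1 µM and 34.2 and 35.9 CPM with 10 µM CDD-2728, lower at 1 µM than with IL1β alone (-0.52 ± 0.11, edgeR adjusted p = 0.00461) and higher at 10 than at 1 µM (0.65 ± 0.11, edgeR adjusted p = 9.18e-05). The 1 µM calls depended on single libraries. PFKFB3 lost its call on leaving out any of the 4 compared (PFKFB3 -0.38 without IL1β replicate 1, -0.32 without IL1β replicate 2, -0.39 without 1 µM CDD-2728 replicate 1 and -0.31 without 1 µM CDD-2728 replicate 2), and ENO2 without IL1β replicate 1 (-0.53, edgeR adjusted p = 0.0534) or 2 (-0.50, edgeR adjusted p = 0.0628).

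NDRG1 had 128 and 128 CPM with IL1β alone, 143 and 131 CPM with 1 µM and 192 and 224 CPM with 10 µM CDD-2728 and was higher at 10 µM than with IL1β alone (0.70 ± 0.082, edgeR adjusted p = 3.11e-07) and than at 1 µM (0.60 ± 0.082, edgeR adjusted p = 4.85e-06). CA12 had 27.8 and 29.6 CPM with IL1β alone, 25.8 and 21.3 CPM with 1 µM and 21.8 and 29.2 CPM with 10 µM CDD-2728 and was not called. P4HA2 was lower at 10 µM than with IL1β alone (-0.37 ± 0.086, edgeR adjusted p = 0.000496). The remaining HIF targets, BNIP3, BNIP3L, P4HA1, ANKRD37, ERO1A, KDM3A and CA9, were called at neither dose against IL1β.

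Of the 31 further HIF targets, 12 were higher and 5 lower at 10 µM than with IL1β alone (median log2 fold change 0.21). At 1 µM, 2 were higher and 4 lower (median -0.029). All tested genes gave 15.6% higher and 15.9% lower at 10 µM, and 2.03% and 2.57% at 1 µM. The list of HIF targets split by gene. DDIT4 had 73.4 and 78.8 CPM with IL1β alone, 106 and 87.5 CPM with 1 µM and 239 and 273 CPM with 10 µM CDD-2728, and VEGFA had 59.4 and 63.6 CPM with IL1β alone, 63 and 69.1 CPM with 1 µM and 104 and 114 CPM with 10 µM CDD-2728, while LOX had 761 and 734 CPM with IL1β alone, 509.9 and 559.5 CPM with 1 µM and 381 and 402 CPM with 10 µM CDD-2728. HMOX1, heme oxygenase, had 12.3 and 13.1 CPM with IL1β alone, 20.5 and 19.4 CPM with 1 µM and 35.1 and 34.9 CPM with 10 µM CDD-2728 and was not called with IL1β alone against vehicle (0.967-fold, 12.4 and 13.9 CPM in vehicle cells). Its call at 1 µM against IL1β was lost on leaving out a library (HMOX1 0.61 without IL1β replicate 1). At 10 µM against IL1β, STC2 (2.03-fold), CITED2 (1.78-fold) and ANGPTL4 (2.6-fold) were also higher, the last losing its call on leaving out libraries (ANGPTL4 1.65 without IL1β replicate 1, 1.16 without IL1β replicate 2 and 0.70 without 10 µM CDD-2728 replicate 2). Of the HIF regulators 0 were higher and 3 lower at 10 µM, among them the ARNT paralogue ARNT2 (0.549-fold, edgeR adjusted p = 1.64e-05). The further isoenzymes and transporters gave 4 higher and 1 lower, the pyruvate dehydrogenase and citric acid cycle genes 4 and 3, and the pentose phosphate genes 1 and 1. Of these, the glucose carrier SLC2A12 was 2.08-fold, PDK3 2.07-fold and the phosphatase TIGAR 1.65-fold higher at 10 µM. Calls were lost on leaving out libraries (PDK3 0.56 without IL1β replicate 1 and 0.77 without 10 µM CDD-2728 replicate 2; TIGAR 0.36 without IL1β replicate 2, 0.82 without 10 µM CDD-2728 replicate 1 and 0.63 without 10 µM CDD-2728 replicate 2). The muscle and fat glucose carrier SLC2A4 held 16 counts at 10 µM, against 1 with IL1β alone, a ratio of 15.2 with a counting interval of 2.37 to 639, and its call was likewise lost without IL1β replicate 1 or 2 or 10 µM CDD-2728 replicate 2 (edgeR adjusted p = 0.074, 0.17 and 0.217).

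Between the doses, 13.3% of all tested genes were higher and 13.8% lower at 10 than at 1 µM. Of the further HIF targets, 10 were higher and 6 lower (median 0.17). Those changed at least 1.5-fold included DDIT4 (2.64-fold), STC2 (2.85-fold), PPFIA4 (2.72-fold), HMOX1 (1.75-fold), VEGFA (1.66-fold) and CITED2 (1.66-fold), each higher at 10 µM. In the other lists ARNT2 (0.464 times) and the hexokinase relative HKDC1 (0.417 times) were lower and SLC2A12 (1.64-fold) higher, with calls lost on leaving out libraries (HKDC1 -1.26 without 1 µM CDD-2728 replicate 1 and -1.0 without 10 µM CDD-2728 replicate 2; SLC2A12 0.70 without 1 µM CDD-2728 replicate 1, 0.73 without 1 µM CDD-2728 replicate 2, 0.69 without 10 µM CDD-2728 replicate 1 and 0.74 without 10 µM CDD-2728 replicate 2).

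With 1 µM CDD-3013 added to IL1β, 10 of 15 glycolytic enzymes and the glucose carrier SLC2A3 were higher. Against IL1β alone, 18 of the 40 genes were higher and 5 lower, while 19.0% of all tested genes were higher and 17.3% lower. The median log2 fold change was 0.19 over the 40 genes and -0.007 over all tested genes. Of the 15 enzymes 10 rose (HK2, GPI, PFKL, PFKM, TPI1, GAPDH, PGK1, PGAM1, ENO1, PKM) and ENO2 fell, and the sum of their TPM was 13460 and 13680 with CDD-3013, against 11710 and 11890 with IL1β alone. That sum did not carry the length and GC correction. Within it, GAPDH averaged 4927 TPM with CDD-3013, against 3980 with IL1β alone, and TPI1 1473 against 1116. GPI, among the 10, averaged 143.6 TPM against 145.2. With library totals the 40 genes gave 14 higher and 9 lower, against 14.5% and 22.5% of all tested genes. After the length and GC correction they gave 18 higher and 2 lower, against 17.3% and 11.0%. Leaving out IL1β replicate 1 lowered the calls among the 40 genes and among all tested genes.

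Changes with CDD-3013 varied with transcript length over all genes: the median log2 fold change was 0.23 in the shortest of 4 equal classes of tested genes by exon length and -0.205 in the longest. TPI1, with 2700 exon bases, and PGAM1, with 2568, belonged to that shortest class, and GAPDH had 2981. TPI1 had 1113 and 1223 CPM with CDD-3013, against 755 and 782 CPM with IL1β alone (0.60 ± 0.084, edgeR adjusted p = 1.62e-05), which became 0.38 after correction (edgeR adjusted p = 0.000504). GAPDH had 4200 and 4420 CPM with CDD-3013, against 2955 and 3098 CPM with IL1β alone (0.51 ± 0.084, edgeR adjusted p = 7.08e-05), which became 0.28 (edgeR adjusted p = 0.00627). PGAM1, the mutase, was no longer called (0.31, 0.13 after correction). The other 7 rising enzymes besides TPI1 and GAPDH kept their call, among them PKM (0.26, 0.32 after correction), ENO1 (0.35, 0.30), PGK1 (0.32, 0.40) and PFKL (0.39, 0.38). With library totals GPI (0.10, edgeR adjusted p = 0.225) and PFKM (0.16, edgeR adjusted p = 0.108) were not called. Calls of some enzymes were lost on leaving out a library (GPI 0.14 without IL1β replicate 1, 0.20 without CDD-3013 replicate 1 and 0.19 without CDD-3013 replicate 2; PFKM 0.22 without IL1β replicate 2; PGK1 0.25 without CDD-3013 replicate 2; PGAM1 0.21 without CDD-3013 replicate 2; PKM 0.26 without IL1β replicate 1 and 0.25 without CDD-3013 replicate 2).

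**Figure D4:**
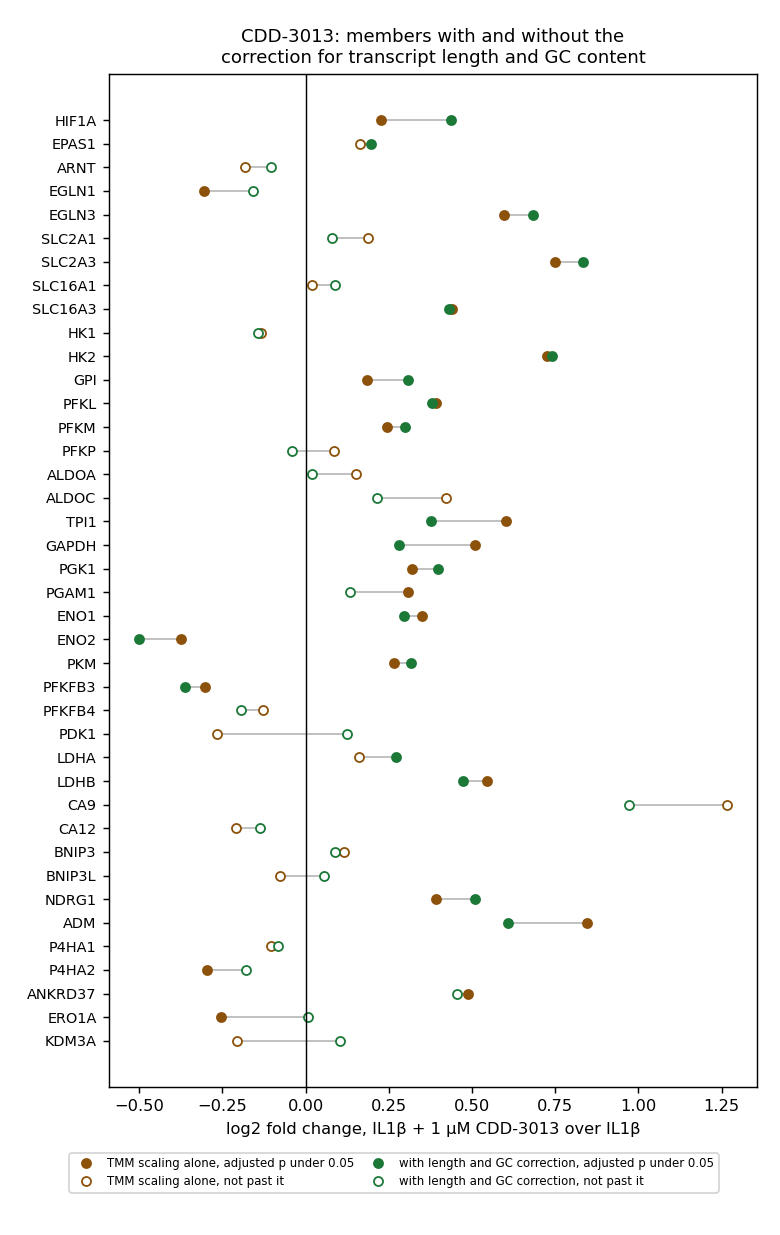
Log2 fold change of each of the 40 genes with 1 µM CDD-3013 over IL1β alone, with TMM scaling alone (brown) and after the length and GC correction (green); filled points have an adjusted p under 0.05. HK2 barely moves, while TPI1, GAPDH and ADM shift to lower and HIF1A to higher values.

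Of the HIF genes, HIF1A and EGLN3 rose and EGLN1 fell with CDD-3013. HIF1A had 453 and 444 CPM with CDD-3013, against 374 and 393 CPM with IL1β alone (0.23 ± 0.082, edgeR adjusted p = 0.0103). That call was lost with library totals (0.15, edgeR adjusted p = 0.105), without IL1β replicate 1 (0.20, edgeR adjusted p = 0.116) and without CDD-3013 replicate 1 (0.22, edgeR adjusted p = 0.0504), and after the length and GC correction the value was 0.44. EPAS1 had 505 and 476 CPM with CDD-3013, against 426 and 449.6 CPM with IL1β alone and missed the threshold (0.16 ± 0.082, edgeR adjusted p = 0.0663), which it passed after that correction (0.20, edgeR adjusted p = 0.0127). The threshold was also missed by ARNT, with 54.4 and 54 CPM with CDD-3013, against 63.4 and 59.6 CPM with IL1β alone (-0.18 ± 0.094, edgeR adjusted p = 0.0692). EGLN3 had 14.3 and 15.2 CPM with CDD-3013, against 9.46 and 10.1 CPM with IL1β alone and was higher (0.60 ± 0.15, edgeR adjusted p = 0.00224). EGLN1 had 78.6 and 81 CPM with CDD-3013, against 102 and 95.6 CPM with IL1β alone and was lower (-0.31 ± 0.088, edgeR adjusted p = 0.0038), a call lost after the length and GC correction (-0.16, edgeR adjusted p = 0.0894) and without IL1β replicate 1 (-0.25, edgeR adjusted p = 0.0831).

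Among transporters and the hexokinases, SLC2A3 had 94.3 and 92 CPM with CDD-3013, against 54.3 and 56.5 CPM with IL1β alone (0.75 ± 0.089, edgeR adjusted p = 2.73e-07). SLC16A3 had 1055 and 1087 CPM with CDD-3013, against 798 and 782 CPM with IL1β alone (0.44 ± 0.082, edgeR adjusted p = 4.04e-05). HK2 had 222 and 222 CPM with CDD-3013, against 133 and 136 CPM with IL1β alone (0.73 ± 0.082, edgeR adjusted p = 2.91e-07). In each of these genes both CDD-3013 libraries lay above both IL1β libraries. SLC2A1, SLC16A1 and HK1 were not called (0.19, 0.018 and -0.13), with levels of 105 and 95.7 CPM, 273 and 283 CPM and 218 and 216 CPM with CDD-3013. ADM had 127 and 140.3 CPM with CDD-3013, against 69.2 and 79.6 CPM with IL1β alone (0.85 ± 0.086, edgeR adjusted p = 2.92e-07), and 0.61 after the length and GC correction. NDRG1 had 177 and 159.5 CPM with CDD-3013, against 128 and 128 CPM with IL1β alone (0.39 ± 0.083, edgeR adjusted p = 0.000407).

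PFKFB3 and ENO2 were lower with CDD-3013. PFKFB3 had 32.6 and 30.9 CPM with CDD-3013, against 38.4 and 39.9 CPM with IL1β alone (-0.30 ± 0.11, edgeR adjusted p = 0.0125), and ENO2 had 27.2 and 21.9 CPM with CDD-3013, against 31.6 and 32.3 CPM with IL1β alone (-0.38 ± 0.11, edgeR adjusted p = 0.00819). Both calls were lost without CDD-3013 replicate 2 (PFKFB3 -0.25, edgeR adjusted p = 0.118; ENO2 -0.22, edgeR adjusted p = 0.207) and without IL1β replicate 2 (-0.27 and -0.35), and that of PFKFB3 also without IL1β replicate 1 (-0.32). LDHB (0.54) and ANKRD37 (0.49) were higher, and P4HA2 (-0.30) and ERO1A (-0.25) lower, with calls lost on leaving out a library (ANKRD37 0.55 without IL1β replicate 1, 0.44 without IL1β replicate 2 and 0.26 without CDD-3013 replicate 2; P4HA2 -0.26 without IL1β replicate 1 and -0.20 without CDD-3013 replicate 1; ERO1A -0.27 without IL1β replicate 1, -0.22 without IL1β replicate 2, -0.23 without CDD-3013 replicate 1 and -0.25 without CDD-3013 replicate 2). The log2 fold change of ERO1A, the oxidase of disulfide formation, was 0.0065 after the length and GC correction. P4HA2 (-0.18, edgeR adjusted p = 0.0525) and ANKRD37 (0.45, edgeR adjusted p = 0.0692) lost their calls after it. ANKRD37 was also not called with library totals (0.41), the stricter filter (0.47), DESeq2 (0.50) or the replicate block (0.48). LDHB shares 33.4% of its exon bases with an overlapping gene on its strand, and ANKRD37 35.2% with UFSP2 on the opposite strand; whether counting used strand is not stated. CA12 had 27.8 and 21.8 CPM with CDD-3013, against 27.8 and 29.6 CPM with IL1β alone and was not called, and CA9 had 23 and 15 counts with CDD-3013, against 2 and 14 with IL1β alone, with no call (edgeR adjusted p = 0.124).

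Of the 31 further HIF targets 11 were higher and 9 lower with CDD-3013 than with IL1β alone (median 0.054). All tested genes gave 19.0% higher and 17.3% lower, and 17.3% and 11.0% after the length and GC correction. HMOX1 had 24.1 and 29.4 CPM with CDD-3013, against 12.3 and 13.1 CPM with IL1β alone, UGP2, which makes UDP-glucose for glycogen, had 292 and 295 CPM with CDD-3013, against 186 and 191 CPM with IL1β alone, and DDIT4 was 1.62-fold higher. ANGPTL4 was 2.21-fold higher, without a call after the length and GC correction (0.89, edgeR adjusted p = 0.118) and in 6 other fits. LOX had 416 and 448 CPM with CDD-3013, against 761 and 734 CPM with IL1β alone, and the ubiquitin ligase subunit WSB1 was at 0.616 times the level with IL1β alone. Of 7 pentose phosphate genes 5 were higher and 0 lower (median 0.40; 4 and 0 after the length and GC correction), led by the transaldolase TALDO1 with 332 and 377 CPM with CDD-3013, against 229 and 240.4 CPM with IL1β alone. Of 18 pyruvate dehydrogenase and citric acid cycle genes 8 were higher and 1 lower (6 and 1 after the correction), the lower one being PDP1 with 53 and 62.4 CPM with CDD-3013, against 92.6 and 90.6 CPM with IL1β alone. HIF regulators gave 3 higher and 2 lower, ELOB, a subunit of the ubiquitin ligase that removes HIF alpha, being 1.81-fold higher, and the lactate carrier SLC16A7 was at 0.516 times the level with IL1β alone.

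The compounds could be compared at a matched dose in 1 pair, CDD-3013 against CDD-2728 at 1 µM, both with IL1β. Of the 40 genes, 10 were higher with CDD-3013 and 0 lower, while 9.85% of all tested genes were higher and 8.01% lower. The 10 were 6 enzymes (PFKL, PFKP, TPI1, GAPDH, ENO1, PKM), 2 transporters (SLC2A3, SLC16A3) and NDRG1 and ADM. The median log2 fold change was 0.16 over the 40 genes, with 29 above 0 and 11 below, and 0.003 over all tested genes. After the length and GC correction 4 were higher (PFKL, SLC2A3, SLC16A3, NDRG1) and 0 lower, against 3.02% and 1.55%, and with library totals 7 were higher and 1 lower, against 6.57% and 12.5%. With replicate 2 of 1 µM CDD-2728 or of CDD-3013 left out, 1 library remained in that group. Fewer of the 40 genes and fewer of all tested genes were then called. In all genes the length trend ran the same way as against IL1β, with medians of 0.18 in the shortest class and -0.14 in the longest.

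SLC16A3 had 1055 and 1087 CPM with CDD-3013, against 843 and 785 CPM with CDD-2728 (0.40 ± 0.082, edgeR adjusted p = 0.00108), and 0.31 after the length and GC correction (edgeR adjusted p = 0.0151). SLC2A3 had 94.3 and 92 CPM with CDD-3013, against 77.5 and 75.7 CPM with CDD-2728 (0.28 ± 0.087, edgeR adjusted p = 0.0109), a call lost without replicate 2 of 1 µM CDD-2728 (0.26, edgeR adjusted p = 0.0917) or CDD-3013 replicate 1 (0.27) or 2 (0.31). TPI1 had 1113 and 1223 CPM with CDD-3013, against 964 and 793 CPM with CDD-2728 (0.41 ± 0.084, edgeR adjusted p = 0.00286), and GAPDH had 4200 and 4420 CPM with CDD-3013, against 3588 and 3056 CPM with CDD-2728 (0.38 ± 0.084, edgeR adjusted p = 0.00429). In both, the first CDD-2728 library stood well above the second. Neither call held after the length and GC correction (0.22 and 0.18) or without replicate 2 of 1 µM CDD-2728 (0.27, edgeR adjusted p = 0.0646 for TPI1; 0.26, edgeR adjusted p = 0.0904 for GAPDH). GAPDH was not called without CDD-3013 replicate 2 either (0.34, edgeR adjusted p = 0.0505). NDRG1 had 177 and 159.5 CPM with CDD-3013, against 143 and 131 CPM with CDD-2728 (0.30 ± 0.082, edgeR adjusted p = 0.0106), with the call lost on leaving out libraries (NDRG1 0.23 without 1 µM CDD-2728 replicate 2 and 0.22 without CDD-3013 replicate 1). ADM had 127 and 140.3 CPM with CDD-3013, against 112 and 112 CPM with CDD-2728 (0.25 ± 0.085, edgeR adjusted p = 0.0371), with the call lost with library totals (0.19, edgeR adjusted p = 0.117) and likewise on leaving out a library (ADM 0.25 without 1 µM CDD-2728 replicate 1, 0.25 without 1 µM CDD-2728 replicate 2 and 0.19 without CDD-3013 replicate 2), and stood at 0.049 after the correction (edgeR adjusted p = 0.761).

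Of the other enzymes called, PFKP and PKM were not called with library totals (0.16 and 0.17), and PFKP, ENO1 and PKM also depended on single libraries (PFKP 0.20 without 1 µM CDD-2728 replicate 2, 0.23 without CDD-3013 replicate 1 and 0.24 without CDD-3013 replicate 2; ENO1 0.20 without 1 µM CDD-2728 replicate 2 and 0.27 without CDD-3013 replicate 2; PKM 0.15 without 1 µM CDD-2728 replicate 2, 0.27 without CDD-3013 replicate 1 and 0.22 without CDD-3013 replicate 2). For HK2 and the HIF alpha subunits the difference between the compounds was not called. HK2 had 222 and 222 CPM with CDD-3013, against 206 and 229 CPM with CDD-2728, a log2 difference of 0.030 with a 95% interval of -0.14 to 0.20. The difference was -0.085 for HIF1A (interval -0.25 to 0.084) and -0.069 for EPAS1 (-0.24 to 0.10). For 36 of the 40 genes the interval lay within a log2 difference of 0.585, a fold of 1.5, in either direction. The widest was that of CA9 (-0.83 to 1.52). EGLN3 had 14.3 and 15.2 CPM with CDD-3013, against 11.4 and 12.3 CPM with CDD-2728 (0.31, interval 0.014 to 0.61) and did not pass (edgeR adjusted p = 0.128). A p that misses the threshold does not show that the compounds act alike.

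**Figure D5:**
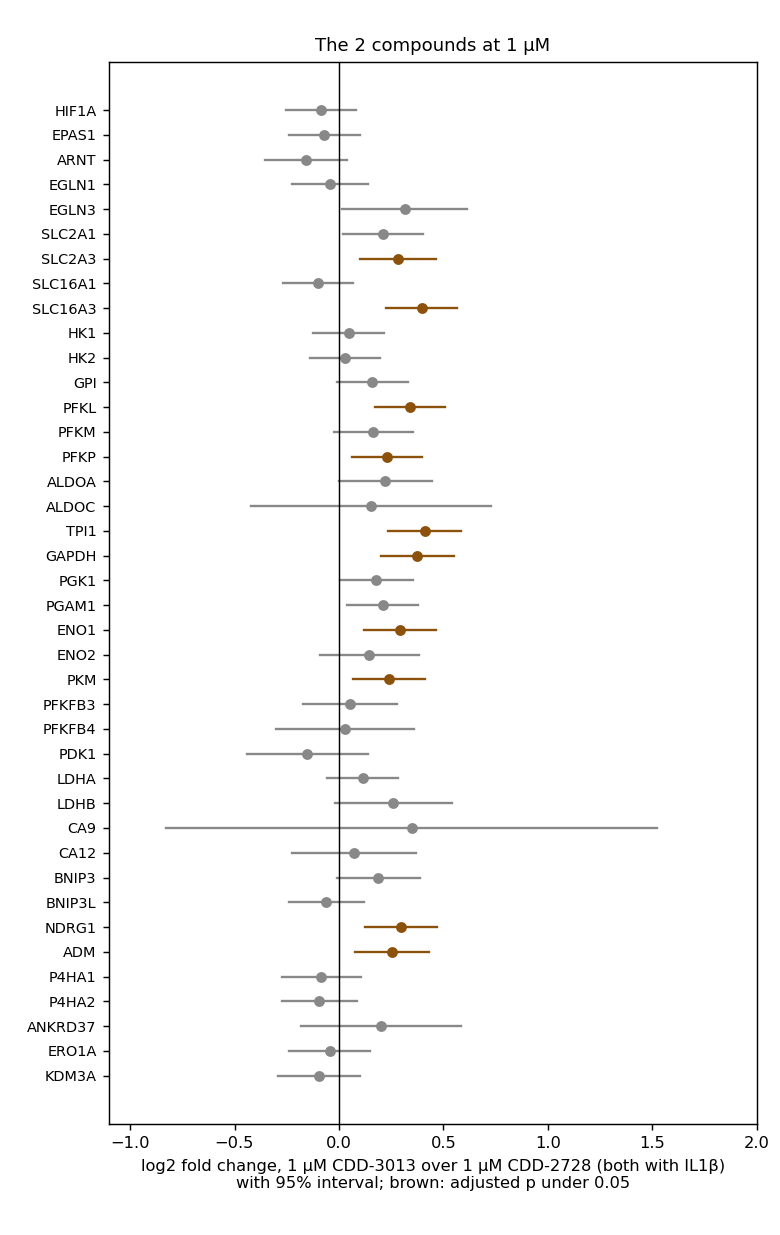
Log2 fold change of each of the 40 genes, 1 µM CDD-3013 over 1 µM CDD-2728, both with IL1β, with 95% intervals; brown points have an adjusted p under 0.05. The called genes all lie right of 0, HK2 sits at 0.030, and CA9 has the widest interval.

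Other pathway lists differed between the compounds in part. At 1 µM, 5 of 7 pentose phosphate genes were higher with CDD-3013 than with CDD-2728 and 0 lower, TKT and TALDO1 among those higher (median 0.25; 1 and 0 after the length and GC correction). Of the 31 further HIF targets 2 were higher and 5 lower, with a median of 0.088. All tested genes gave 9.85% higher and 8.01% lower, and 3.02% and 1.55% after the correction. Among the genes called, the largest differences in these lists were those of the lactate carrier SLC16A7, with 13 and 13.3 CPM with CDD-3013, against 22.1 and 24.7 CPM with CDD-2728, and of ELOB, with 159 and 185 CPM with CDD-3013, against 131 and 98 CPM with CDD-2728.

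With IL1β plus 10 µM CDD-2728 against vehicle, both HIF alpha subunits, both hydroxylases, all 4 transporters and 8 of 11 other HIF targets were higher. Of the 40 genes 21 were higher and 1 (PFKM) lower, while 18.2% of all tested genes were higher and 16.4% lower, and the median log2 fold change was 0.25, against -0.01 over all tested genes. With library totals the median of all genes shifted to -0.125, and the 40 genes gave 16 higher and 2 lower, against 13.4% and 26.2%. PFKL, LDHA, BNIP3L, P4HA1 and KDM3A were called with TMM factors and not with library totals (0.18, 0.13, 0.079, 0.15 and 0.13). Each of these calls was also lost without replicate 2 of 10 µM CDD-2728 (0.16, 0.21, 0.15, 0.23 and 0.28). Leaving out vehicle replicate 1 ended the calls of LDHA (0.21), BNIP3L (0.21) and P4HA1 (0.22). Without vehicle replicate 2, BNIP3L (0.19) and KDM3A (0.20) lost theirs, as did KDM3A without 10 µM CDD-2728 replicate 1 (0.22). HK2 had 266 and 279 CPM with IL1β plus 10 µM CDD-2728, against 30.7 and 26 CPM in vehicle cells, 9.6-fold (log2 3.26 ± 0.089, edgeR adjusted p = 1.5e-19). SLC2A3 had 168 and 186 CPM, against 36.2 and 39 CPM, 4.71-fold (log2 2.24 ± 0.089, edgeR adjusted p = 4.68e-17). The folds were 4.14 for HIF1A, 3.74 for EGLN3, 3.44 for EPAS1, 2.2 for NDRG1, 2.11 for SLC2A1 and 2.08 for EGLN1. SLC16A3 differed least of the 4 transporters (0.28 ± 0.083, edgeR adjusted p = 0.00232) and was not called without replicate 2 of 10 µM CDD-2728 (0.21, edgeR adjusted p = 0.0665).

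CA9 passed the threshold in this comparison only, among the 7. It held 16 and 22 counts in the libraries with 10 µM CDD-2728, against 3 and 10 in the vehicle libraries, a ratio of 3.40 with a counting interval of 1.77 to 6.95 (edgeR adjusted p = 0.0415). The call was lost with DESeq2 (adjusted p = 0.0623), after the length and GC correction (edgeR adjusted p = 0.0561) and without vehicle replicate 1 (1.07, edgeR adjusted p = 0.299) or 10 µM CDD-2728 replicate 1 (2.03) or 2 (1.41). CA9 shares 38.5% of its exon bases with ARHGEF39 on the opposite strand, a gene with 1628 counts over the libraries against the 136 of CA9. Of the 31 further HIF targets 17 were higher and 1 lower than in vehicle (median 0.31), against 18.2% and 16.4% of all tested genes. DDIT4 was 16.8-fold, VEGFA 5.57-fold, ANGPTL4 4.28-fold, BHLHE40 2.77-fold, HMOX1 2.66-fold, STC2 2.32-fold, UGP2 2.23-fold and AK4 1.63-fold higher. In the other lists SLC2A6 (4.03-fold), TIGAR (2.64-fold), SLC2A12 (2.27-fold) and PDP1 (1.78-fold) were higher. LOX (2.14-fold), lower with the compound than with IL1β alone, was still higher than in vehicle.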

How the data were processed

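Whole-number counts per gene for 10 libraries were deposited by the authors as 1 table. Per the submitters' processing notes, fastp, STAR and featureCounts were used with hg38. Versions, annotation and strand setting were not given in the sources used here. Libraries were assigned to groups by their labels, 2 per group, and their column names matched those labels.

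Of 62750 gene IDs, 61918 were named by GENCODE 29 (GRCh38) with version and 754 without, and 78 were not matched. Counts were tested with edgeR 4.0.16 in R 4.3.3 (TMM scaling, filterByExpr with a minimum count of 10, robust quasi-likelihood fit of all 10 libraries), which left 15740 genes, and p-values were adjusted by the Benjamini-Hochberg method over them at a threshold of 0.05. The 7 comparisons share libraries. CPM were scaled by TMM factors and TPM computed per union exon length. Standard errors and 95% intervals are Wald values of the fitted log2 fold change, with the variance not taken below that of the fitted count model. The edgeR test does not use that floor, so an interval can span both directions where its unadjusted p is under 0.05. Counting intervals are exact and cover counting error only. The length and GC correction used loess offsets (span 0.3, 2 rounds). Libraries held 16312600 to 19479416 counts.

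Alternatives were relative log expression scaling, library totals, no filter, a filter of 5 CPM in 2 libraries, DESeq2 1.42.0, fits of the compared groups alone, a replicate block, the length and GC correction, and leaving out each library. Genes given in full were those called with a fold of at least 1.5 in a comparison, plus HIF1A, EPAS1, ARNT and GAPDH; genes of 5 other lists were named by the same fold, except some not reported here. The 40 genes and the lists were chosen with earlier results of these data known.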

Additional observations from a re-analysis of the deposited data

How the results depend on the processing

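Of 74 calls of genes given in full, none reversed under the alternatives run. Calls lost were 1 under relative log expression scaling, 3 with library totals, 2 with DESeq2 and 2 with the compared groups alone. The replicate block lost 1, the length and GC correction 6 and both together 7. The unfiltered and the strictly filtered fits lost none, CA9 not being testable under the latter. Every fit that left out a library lost calls as well. How many of the 74 were lost in at least 1 fit was not counted. For the 35 calls of other members and 68 of other pathway genes, run after seeing the data, 24 and 13 were lost in at least 1 fit. The exception in direction was ERO1A with CDD-3013 against IL1β, at -0.25, which was 0.0065 after the length and GC correction (edgeR adjusted p = 0.964) and 0.0066 with the replicate block added (edgeR adjusted p = 0.964); the cause was not tested.

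Counts of called members moved by over 1.5 times in these cases. For CDD-3013 against CDD-2728 at 1 µM, 10 became 6 with the compared groups alone, 4 after the length and GC correction and 4 with the block added. Calls over all tested genes fell as well, from 1550 higher and 1261 lower of 15740. They were 945 and 873 of 14340 with the compared groups alone. After the correction they were 476 and 244, and with the block added 320 and 172. For 10 against 1 µM CDD-2728, 13 became 20 after the length and GC correction. Over all tested genes, 2093 higher and 2169 lower became 1708 and 3531. Leaving out 1 library gave 3 to 8 calls for 1 µM CDD-2728 against IL1β (6 with all libraries), 15 to 19 for CDD-3013 against IL1β (23) and 2 to 12 for CDD-3013 against CDD-2728 (10). For 10 against 1 µM it gave 9 to 16 (13), a shift under 1.5 times.

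Samples share replicate numbers across groups, but deviations of same-numbered samples correlated at only -0.114 to 0.0548, so the numbers were not taken as pairs. Replicate 1 held more counts than replicate 2 in every group, and the reason was not tested. With the replicate block, called members numbered 22 for IL1β against vehicle, 22 for CDD-3013 against IL1β, 12 for 10 against 1 µM CDD-2728 and 10 for CDD-3013 against CDD-2728, and SLC2A1 lost its call at 10 against 1 µM (0.25, edgeR adjusted p = 0.0547). The 2 libraries per group limit all comparisons, and CA9, with 136 counts in all, is the member most limited by depth.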
